A study of Homo sapiens with 6 samples.

Results

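Notch receptors, their ligands and their HES and HEY targets were followed in 6 RNA sequencing libraries of Cal27 spheroids. The genes were the receptors NOTCH1, NOTCH2 and NOTCH3, the ligands JAG1, JAG2 and DLL1, and the target genes HES1, HES4, HEY1 and NRARP, chosen by symbol; all 10 were found among the 38167 genes of the count table and all 10 passed the filter on low counts. Cal27 is an established line from a human squamous cell carcinoma of the tongue. Its spheroids were grown by liquid overlay in soft Matrigel (3 mg/mL) or stiff Matrigel (12 mg/mL), a basement membrane extract, and were collected on day 14, with 3 libraries of polyadenylated RNA per group. The labels call the libraries biological replicates without naming separate cultures, so every p-value here reflects only the spread among 3 and 3 libraries, which may be technical. The data come from a single line, and a higher Matrigel concentration brings both more stiffness and more matrix ligand, which cannot be told apart. The RNA is bulk, so fewer cells of a kind and less RNA per cell cannot be told apart either.

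Notch receptors are membrane proteins that are cut when a ligand on a neighbouring cell pulls on them. The freed intracellular part enters the nucleus, joins the DNA-binding protein RBPJ and a MAML co-activator, and switches on genes such as those of the HES and HEY repressor families. In stratified squamous epithelium the pathway is known for its part in the exit of cells from the basal layer, and NOTCH1 is recurrently mutated in squamous carcinomas of the head and neck.

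The 3 receptors did not move together. NOTCH3 was higher in stiff than in soft Matrigel (1.49-fold), whereas NOTCH1 and NOTCH2 were lower (1.39-fold and 1.83-fold). The ligands JAG2 (1.40-fold) and DLL1 (1.22-fold) and the feedback inhibitor NRARP (1.40-fold) were higher. JAG1, HES1, HES4 and HEY1 did not pass the threshold. In edgeR's quasi-likelihood test on counts, with an adjusted p below 0.05 over all genes as the threshold, 4 of the 10 genes were therefore higher in stiff and 2 were lower. Of all 18676 genes tested, 49.1% were called, 25.3% as higher and 23.8% as lower, so the share of called Notch genes was close to the background. The soft and stiff CPM values did not overlap in 6 of the 10 genes, against 59.9% of all genes tested. The median log2 fold change was 0.17 over the 10 genes and -0.00017 over all genes tested. With stiff replicate 2 left out, a library described further on, 5 of the 10 were higher and 3 lower, beside 55.7% of all genes tested called.

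The libraries held between 30656278 and 40583044 counted fragments. Levels are given as CPM, the count scaled to a fixed library size with edgeR's TMM factors. Markers of squamous epithelium were present at high level. Their summed level over 8 genes was 4447 to 4854 CPM in soft and 15240 to 16132 CPM in stiff. Of the 8, 5 were higher, among them KRT5 and KRT14, and 2 were lower (CDH1, -0.44, and EPCAM, -0.33 on the log2 scale). Among all genes tested, 25.3% were higher and 23.8% lower. The summed level of 6 endothelial markers went from 11.0 to 14.0 CPM in soft to 3.87 to 5.07 CPM in stiff, with CDH5 lower and VWF higher. KDR and CLDN5 were below the count filter. Over 7 fibroblast markers it went from 72.9 to 80.4 CPM to 99.3 to 106 CPM. COL1A1 made up most of this level and rose 1.15-fold, and LUM rose 7.55-fold, from 2.31 to 17.3 CPM, with COL3A1 and DCN below the filter. Over 6 leukocyte markers it went from 103 to 111 CPM to 130 to 144 CPM, nearly all of it from CD68, which rose 1.80-fold, and CD14, which fell 1.40-fold, with PTPRC and LYZ below the filter. The part of these markers in the Notch results was not tested.

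Stiff replicate 2 stood apart from the other stiff libraries, and its departure followed transcript length. Genes were put into 10 bins of equal size by length. In the bin of the shortest genes (median length 916 bases) its CPM was above the mean of stiff replicates 1 and 3 by a median of 0.33 on the log2 scale, and in the bin of the longest (median 8987 bases) the median difference was -0.32. The Notch genes span that range, from HES4 (1040 bases) to NOTCH2 (11389 bases). In stiff replicate 2 the 3 receptors differed from the other stiff libraries by -0.45 (NOTCH1), -0.50 (NOTCH2) and -0.47 (NOTCH3). The 4 targets differed by 0.39 (HES1), 0.46 (HES4), 0.62 (HEY1) and 0.20 (NRARP). In the length bins of these targets the all-gene median was 0.33 (HES4), 0.22 (HES1 and NRARP) and 0.09 (HEY1). HES4, HES1 and HEY1 lay above the upper quartiles of their bins (0.42, 0.33 and 0.22), and NRARP did not. How far length accounts for the departure of each gene was not tested. Among the soft libraries, soft replicate 2 was the lowest for the 3 receptors and the highest for HES1, HES4 and NRARP, but the lowest for HEY1. Over the genes tested, the deviations of soft replicate 2 and stiff replicate 2 from their group means correlated at 0.22. A trend on length in soft replicate 2 was not tested separately. Lengths are those of the longest GENCODE release 29 transcript paired with a RefSeq transcript.

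**Figure D1:**
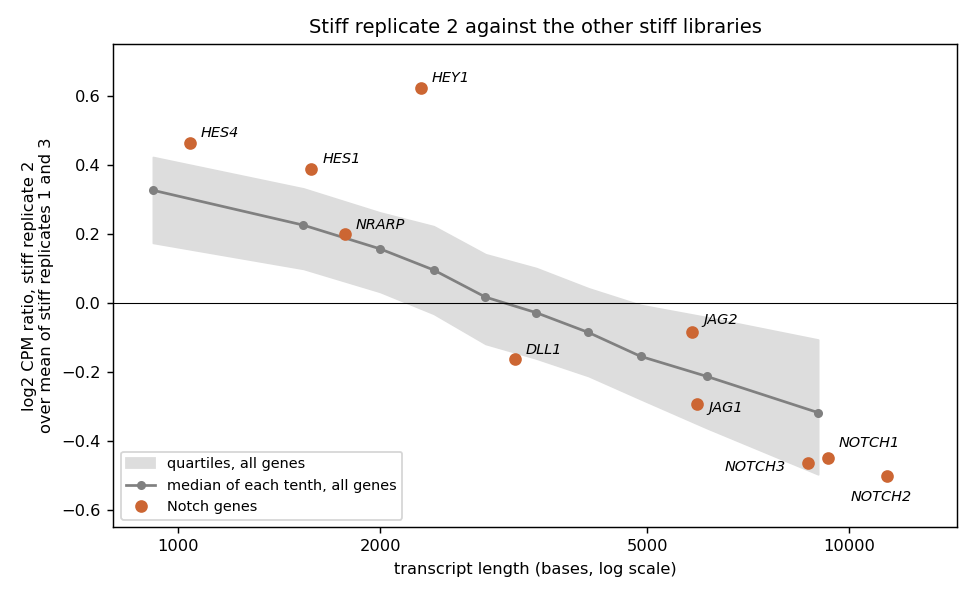
Log2 ratio of CPM in stiff replicate 2 to the mean of stiff replicates 1 and 3, against transcript length in bases on a log scale. The grey line and band give the median and quartiles of all genes in 10 bins of length, and the points are the 10 Notch genes. The targets HES1, HES4, HEY1 and NRARP lie above 0, with HEY1 well above the band. The long receptors lie between -0.45 and -0.50.

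A smaller trend of the same direction ran between the groups. The median log2 fold change from soft to stiff was 0.20 in the bin of the shortest genes and -0.18 in that of the longest. With stiff replicate 2 left out, the median log2 ratio of stiff to soft was 0.11 and -0.10 in these bins. Fold changes without stiff replicate 2, or with each library's trend on length taken out, are therefore given beside the 10 genes where they change a call or move the value, and beside some long genes of the other lists.

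NOTCH3 (Entrez 4854, chromosome 19, 15159038 to 15200995 on GRCh38, minus strand) encodes a receptor best known from smooth muscle of vessels and also made by epithelial cells. It was at 679, 640 and 719 CPM in the soft libraries and at 1158, 809.5 and 1078 CPM in the stiff libraries. The groups did not overlap, and stiff replicate 2 was the lowest of the stiff libraries. The log2 fold change was 0.58 ± 0.12 (SE; adjusted p = 0.00262). It was 0.72 without stiff replicate 2 and 0.74 with the length trend taken out. With limma on log2(TPM + 1), in which stiff replicate 2 (181 TPM) lay below soft replicate 1 (182 TPM) and soft replicate 3 (184 TPM), the call was lost (0.45, adjusted p = 0.0793).

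NOTCH1 (Entrez 4851, chromosome 9, 136494433 to 136546048, minus strand) encodes the receptor that keratinocytes use on leaving the basal layer. It was at 267, 241 and 244 CPM in soft and at 206, 144 and 188 CPM in stiff, so that every stiff library lay below every soft library. The log2 fold change was -0.48 ± 0.12 (SE; adjusted p = 0.00668). It was smaller without stiff replicate 2 (-0.35, adjusted p = 7.06e-05) and with the length trend taken out (-0.31, adjusted p = 0.00136). With limma on log2(TPM + 1) and no filter on low values the call was lost (-0.59, adjusted p = 0.0664).

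NOTCH2 (Entrez 4853, chromosome 1, 119911553 to 120069662, minus strand) had the largest fall of the 10 genes in edgeR's test. It was at 203, 174 and 216 CPM in soft and at 123, 84.6 and 116 CPM in stiff, again without overlap. The log2 fold change was -0.87 ± 0.13 (SE; adjusted p = 0.000481), larger in size than that of 82.7% of all genes tested. It was -0.72 without stiff replicate 2 and -0.69 with the length trend taken out. In the last of these the rise of NOTCH3 (0.74) was larger in size. NOTCH2 shares near-identical sequence with its partial copies NOTCH2NLA, NOTCH2NLB, NOTCH2NLC and NOTCH2NLR, and how multi-mapping reads were counted is not stated in the labels, so its counts are uncertain. The 4 copies together had 2547, 1872 and 1960 counts in soft and 1930, 2134 and 1847 in stiff. Their sum came to 29.2% to 31.6% of the NOTCH2 count in soft and 44.0% to 70.7% in stiff, with the highest share in stiff replicate 2.

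**Figure D2:**
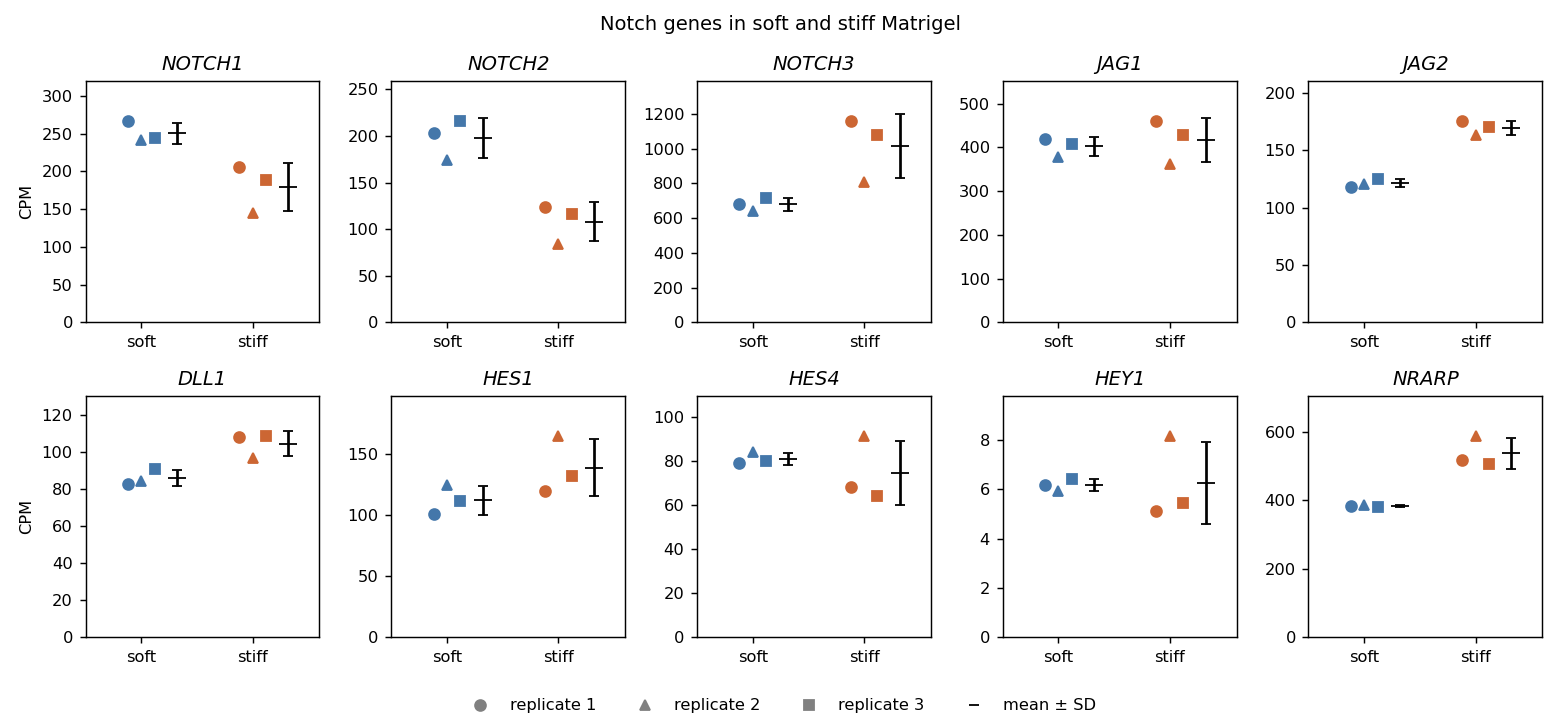
CPM of the 10 genes in each library, soft on the left and stiff on the right of each panel, with the marker shape giving the replicate number and black bars the mean and SD of 3 libraries. NOTCH1 and NOTCH2 lie lower and NOTCH3, JAG2, DLL1 and NRARP higher in stiff without overlap, and stiff replicate 2 (triangle) is the lowest stiff library for the receptors and the highest for the targets.

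These opposite changes altered the make-up of the receptor pool, a quantity that compares genes within a library and so needs no scaling between libraries. Levels between genes have to be compared per length. The deposited TPM values are scaled by a gene length, but that length grew with the number of transcripts annotated for a gene. Relative to genes with 1 RefSeq transcript, the length behind the TPM was 1.95 times the transcript length for genes with 2, 2.85 times with 3 and 4.59 times with 5 (medians of 1267, 925 and 489 genes). Deposited TPM therefore understate genes with many transcripts, and levels are also given as CPM per kilobase of the longest transcript.

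NOTCH3 made up 59.6%, 61.1% and 61.3% of the summed TPM of the 3 receptors in soft and 78.3%, 78.4% and 78.4% in stiff. NOTCH1 went from 20.8% ± 1.29 to 12.9% ± 0.148 and NOTCH2 from 18.5% ± 0.971 to 8.78% ± 0.150 (mean ± SD, n = 3). The groups did not overlap for any receptor, and stiff replicate 2 had the same make-up as the other stiff libraries. Per kilobase of transcript, NOTCH3 made up 63.9% ± 1.02 in soft and 80.3% ± 0.0720 in stiff (SD, n = 3). The ratio of NOTCH3 TPM to NOTCH1 TPM was 2.75, 2.86 and 3.17 in soft and 6.05, 6.03 and 6.16 in stiff. The ratio of NOTCH3 to NOTCH2 was 3.17, 3.50 and 3.16 in soft and 8.90, 9.10 and 8.79 in stiff. The summed receptor level overlapped between the groups, at 263 to 306 TPM in soft and 231 to 365 TPM in stiff, with the lowest stiff value in stiff replicate 2. These shares and ratios are a description, with no test.

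**Figure D3:**
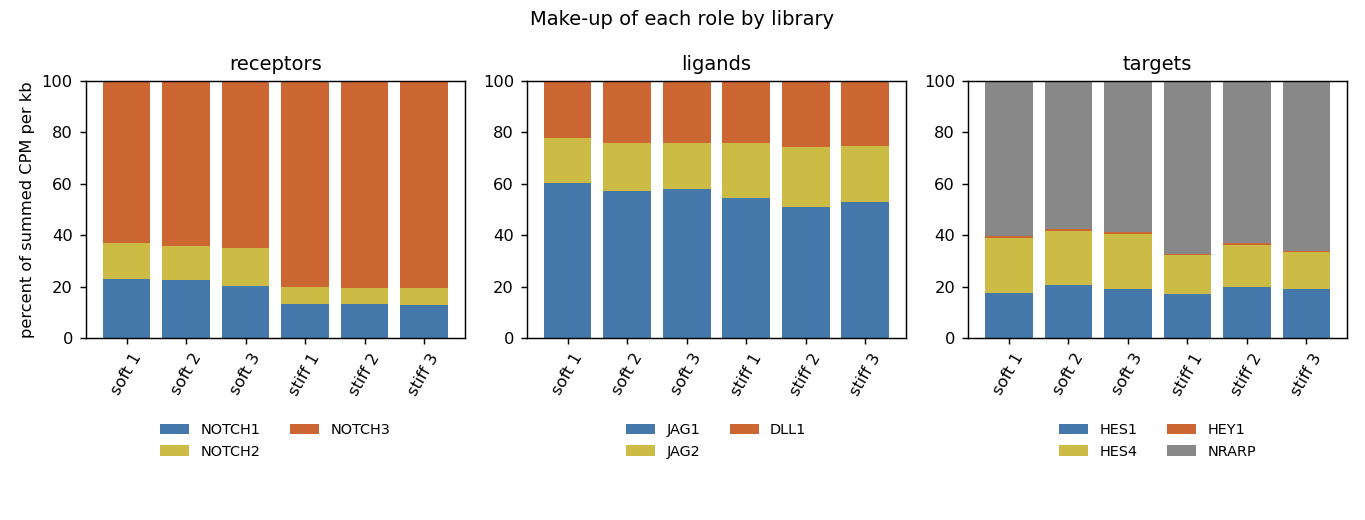
Share of each gene in the summed CPM per kilobase of its role, in percent, for receptors, ligands and targets in each of the 6 libraries. The NOTCH3 share of the receptors rises from 62.8% to 64.8% in the soft libraries to 80.2% to 80.3% in the stiff libraries.

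JAG2 (Entrez 3714, chromosome 14, 105140995 to 105168776, minus strand), a Serrate-type ligand, showed little spread within either group. It was at 118, 121 and 125 CPM in soft and at 175, 163 and 171 CPM in stiff. The log2 fold change was 0.48 ± 0.064 (SE; adjusted p = 0.000181), and 0.60 with the length trend taken out. DLL1 (Entrez 28514, chromosome 6, 170282206 to 170291078, minus strand), a Delta-type ligand that basal keratinocytes present to their neighbours, was at 82.7, 84.7 and 90.9 CPM in soft and at 108, 96.8 and 109 CPM in stiff. The groups did not overlap in CPM but did in TPM. Its log2 fold change was 0.28 ± 0.074 (SE; adjusted p = 0.0103), and 0.33 without stiff replicate 2. The call was lost without soft replicate 1 (adjusted p = 0.0577) and with limma on log2(TPM + 1) (adjusted p = 0.207).

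JAG1 (Entrez 182, chromosome 20, 10637684 to 10673999, minus strand), the other Serrate-type ligand, had the highest count of the ligands. It was at 420, 379 and 409 CPM in soft and at 460, 362 and 428 CPM in stiff. The groups overlapped, with stiff replicate 2 below all soft libraries and the other stiff libraries above them. The log2 difference was 0.05 ± 0.092 (SE; adjusted p = 0.678). It was -0.0073 with scaling by library size only, and 0.14 without stiff replicate 2, where the gene passed as higher (adjusted p = 0.0434). It also passed with the length trend taken out (0.16, adjusted p = 0.0278). Per kilobase, JAG1 made up 58.6% ± 1.64 of the summed ligand level in soft and 53.0% ± 1.85 in stiff, and JAG2 18.0% ± 0.658 and 22.1% ± 1.19 (SD, n = 3), without overlap. The deposited TPM give a JAG1 share of 76.8% ± 1.21 in soft and 72.7% ± 1.43 in stiff (SD, n = 3), a larger share on a scale that counts 1 RefSeq transcript for JAG1 and 5 for JAG2.

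NRARP (Entrez 441478, chromosome 9, 137299631 to 137302271, minus strand) is induced by Notch and binds the nuclear Notch complex to restrain it. HES1 (Entrez 3280, chromosome 3, 194136148 to 194138732, plus strand) and HES4 (Entrez 57801, chromosome 1, 998964 to 1000097, minus strand) encode repressors with a basic helix-loop-helix domain. RefSeq promoter windows of 300 bases on GRCh38.p14, which end 50 bases past the start of the gene, held 8 of the 10 genes. They were searched on both strands for TGGGAA, the core of the RBPJ motif. The 3 target genes with a window are shown because they are the readout of the pathway here, 5′ to 3′ on the strand of the gene, with the matches in capitals. They lie at chr3:194135898-194136197 (HES1), chr1:1000048-1000347 (HES4) and chr9:137302222-137302521 (NRARP).
HES1: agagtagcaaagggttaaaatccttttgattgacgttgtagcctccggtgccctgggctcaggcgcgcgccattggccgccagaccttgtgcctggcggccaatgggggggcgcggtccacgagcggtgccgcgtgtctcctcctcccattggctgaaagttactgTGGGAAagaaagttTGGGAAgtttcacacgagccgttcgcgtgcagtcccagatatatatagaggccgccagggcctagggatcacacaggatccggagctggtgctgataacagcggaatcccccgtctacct
HES4: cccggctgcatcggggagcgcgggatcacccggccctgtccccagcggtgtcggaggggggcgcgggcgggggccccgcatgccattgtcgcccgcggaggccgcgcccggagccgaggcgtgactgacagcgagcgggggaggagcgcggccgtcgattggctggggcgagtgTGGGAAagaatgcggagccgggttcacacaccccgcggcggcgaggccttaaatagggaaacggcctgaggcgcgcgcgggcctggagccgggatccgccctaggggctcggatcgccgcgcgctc
NRARP: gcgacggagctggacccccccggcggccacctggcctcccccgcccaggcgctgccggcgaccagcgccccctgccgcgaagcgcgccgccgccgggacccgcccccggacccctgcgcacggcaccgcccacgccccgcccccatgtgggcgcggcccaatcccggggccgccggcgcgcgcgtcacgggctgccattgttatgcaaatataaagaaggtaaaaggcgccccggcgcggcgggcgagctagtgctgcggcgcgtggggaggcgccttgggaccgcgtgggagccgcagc
HES1 had 2 matches, from 84 to 79 and from 70 to 65 bases before the start, and HES4 had 1, from 76 to 71 bases before it. Of the other 6 Notch genes with a window, NRARP, JAG1, JAG2, NOTCH1, NOTCH2 and NOTCH3, none held these letters in the window. Of all 27305 windows, 24.3% held a match on either strand and 3.81% held at least 2. A match is a description of the sequence and not a measured site.

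NRARP was at 384, 387 and 379 CPM in soft and at 518, 587 and 505 CPM in stiff. The groups were far apart relative to their spread, and the highest value was that of stiff replicate 2. The log2 fold change was 0.49 ± 0.073 (SE; adjusted p = 0.000411), 0.42 without stiff replicate 2 (adjusted p = 1.15e-06) and 0.39 with the length trend taken out (adjusted p = 4.85e-05).

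HES1 was at 100.5, 124 and 111 CPM in soft and at 119, 165 and 132 CPM in stiff. The groups overlapped, because soft replicate 2 lay above stiff replicate 1. The log2 difference was 0.31 ± 0.12 (SE; adjusted p = 0.0551), and 0.17 without stiff replicate 2 (adjusted p = 0.0565). It passed as higher with DESeq2 (adjusted p = 0.0396) and without stiff replicate 1 (0.41, adjusted p = 0.0182), with an adjusted p between 0.00169 and 0.234 over all alternatives.

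HES4 was at 79.0, 84.0 and 80.1 CPM in soft and at 68.2, 91.3 and 64.2 CPM in stiff. In CPM, stiff replicates 1 and 3 lay below all soft libraries and stiff replicate 2 above them. In TPM, every stiff library (77.3, 93.8 and 72.9) lay below every soft library (97.3, 96.8 and 94.1). The log2 difference over all libraries was -0.12 ± 0.12 (SE; adjusted p = 0.428). Without stiff replicate 2 it was -0.29, and HES4 passed as lower (adjusted p = 0.000235). With the length trend taken out and all libraries kept it was -0.31, also past the threshold (adjusted p = 0.0022). Within each library the ratio of HES1 TPM to HES4 TPM was 2.90, 3.38 and 3.17 in soft and 3.99, 4.11 and 4.69 in stiff, without overlap. The size of this ratio rests on deposited TPM, with 5 RefSeq transcripts listed for HES4 and 1 for HES1. Per kilobase, HES1 and HES4 averaged 71.0 and 77.9 CPM in soft and 87.8 and 71.7 CPM in stiff.

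HEY1 (Entrez 23462, chromosome 8, 79764010 to 79767767, minus strand), a repressor of the hairy-related family, was the least abundant of the genes, with 177 to 291 counts per library. It was at 6.16, 5.95 and 6.43 CPM in soft and at 5.13, 8.16 and 5.46 CPM in stiff. As for HES4 in CPM, stiff replicate 2 lay above all soft libraries and the other stiff libraries below them. The log2 difference was 0.02 ± 0.17 (SE; adjusted p = 0.943) over all libraries and -0.22 without stiff replicate 2 (adjusted p = 0.147). No difference between the groups was detectable for HEY1 in these libraries, in the main fit or under any alternative.

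**Figure D4:**
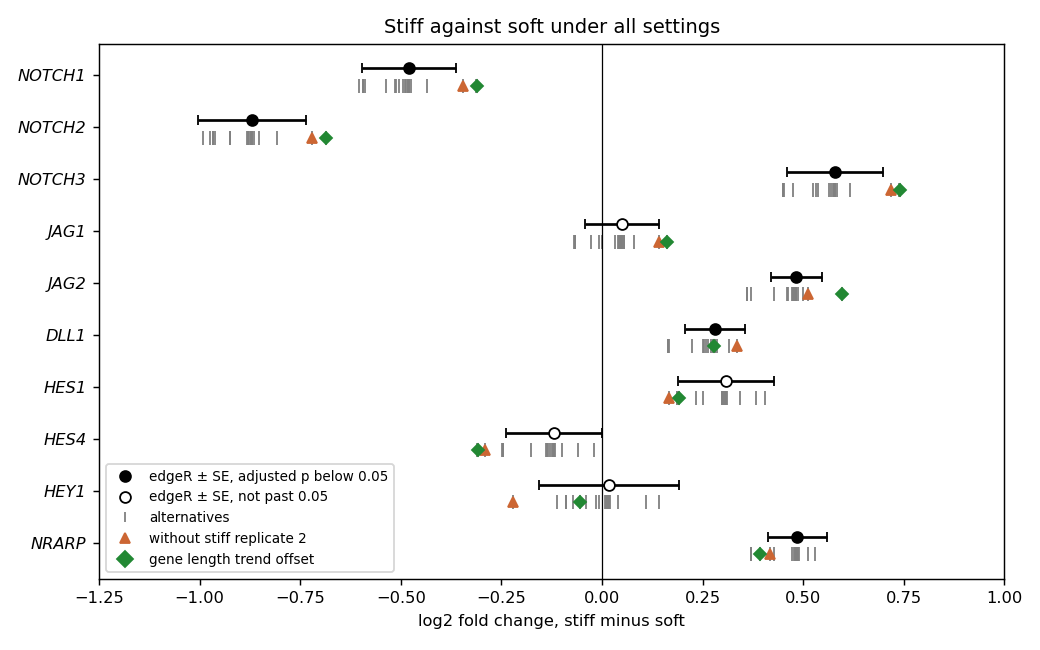
Log2 fold change of each of the 10 genes, stiff minus soft, with its SE (circle, filled where the adjusted p is below 0.05), and below it the same value under each alternative processing. NOTCH1 and NOTCH2 stay below 0 and NOTCH3, JAG2, DLL1, HES1 and NRARP above 0 under all alternatives, whereas JAG1 and HEY1 fall on both sides; HES4 lies at -0.29 without stiff replicate 2 (triangle) and at -0.31 with the length trend taken out (diamond).

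In order of CPM per kilobase, NRARP led in both groups (217 ± 2.31 in soft and 303 ± 24.95 in stiff; SD, n = 3). NOTCH3, HES4, HES1 and JAG1 followed in soft at 78.4, 77.9, 71.0 and 67.8 CPM per kilobase, and each of these overlapped its neighbour in the order. DLL1 (27.1) and NOTCH1 (26.9) also overlapped, and JAG2 (20.8), NOTCH2 (17.4) and HEY1 (2.69) came below them without overlap. In stiff, NOTCH3 (117) came ahead of HES1 (87.8), HES4 (71.7) and JAG1 (70.2), again with overlap between neighbours, and NOTCH1 (19.3) stood below DLL1 (33.0) and JAG2 (29.1). The deposited TPM would place HES4 (96.1 in soft) far below HES1 (303 in soft), where the table lists 5 RefSeq transcripts for HES4 and 1 for HES1.

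The rest of the pathway was read from 8 lists with 50 genes, of which 48 were tested: 10 were higher in stiff, 16 were lower and 22 missed the threshold, beside 49.1% called among all genes tested. Their median log2 fold change was 0.09. Leaving out stiff replicate 2 gave 14 higher and 17 lower, beside 55.7% called among all genes tested. DLL3 and DLK1 were below the count filter, and DLL4 and NOTCH4 were under 1 CPM on average and did not pass. DLK2, a membrane protein related to the Delta ligands, fell 1.66-fold, from 19.0, 22.4 and 22.8 CPM to 12.4, 14.2 and 12.0 CPM (adjusted p = 0.000341). Of 6 other HES and HEY genes, 2 rose (HES2 and HES7) and 0 fell, and HES2 missed the threshold in 7 of 20 alternatives. HES7, known as an oscillating repressor of the embryonic segmentation clock, was low and rose 2.82-fold, with 1.15 ± 0.484 CPM in soft against 3.19 ± 0.443 CPM in stiff (SD, n = 3; edgeR adjusted p = 0.00186).

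Glycosylation enzymes modify the receptor's repeats, and those of the fringe family shift which ligand it answers to. All 5 glycosylation genes tested passed, beside 49.1% of all genes: 3 were lower and 2 higher. LFNG, the fringe enzyme known to favour Delta over Jagged ligands, was at 14.9, 17.8 and 15.3 CPM in soft and at 6.35, 7.51 and 6.38 CPM in stiff, a fall of 2.37-fold (log2 fold change -1.24 ± 0.12 SE, adjusted p = 1.78e-05). The other fringe genes, RFNG and MFNG, were higher, but RFNG missed the threshold in 3 of 20 alternatives, and MFNG reached at most 2.27 CPM and missed the threshold in 14 of 19 alternatives. Exons of GPS1 on the opposite strand cover 21.6% of those of RFNG, so its counts are uncertain. The O-fucosyltransferase POFUT1 and the O-glucosyltransferase POGLUT1, which prepare the receptor's repeats, were lower. Of 9 proteases of receptor processing, 0 rose and 5 fell, beside 25.3% higher and 23.8% lower among all genes. They included ADAM10, which makes the outer cut, and the gamma-secretase subunits PSEN2, NCSTN and PSENEN. PSEN2, a catalytic subunit, fell 1.77-fold, with 20.3 ± 0.758 CPM in soft against 11.5 ± 0.630 CPM in stiff (SD, n = 3; edgeR adjusted p = 4.55e-05). Exons of U2AF1L4 on the opposite strand cover 18.0% of those of PSENEN, so its counts are uncertain, and PSENEN missed the threshold in 6 of 20 alternatives. With the length trend taken out, ADAM10 was at -0.22 in place of -0.41 on the log2 scale, and ADAM17 (0.16, adjusted p = 0.0239) and the subunit APH1B (0.38, adjusted p = 0.0183) passed as higher. Both also passed without stiff replicate 2 (adjusted p = 0.0142 and 0.00932). Exons of IAH1 cover 12.3% of those of ADAM17, whose counts are uncertain.

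Among all genes tested, 25.3% were higher and 23.8% lower, and the counts by role that follow stand beside these shares. Of 4 ubiquitin ligases that drive ligand endocytosis, 2 rose and 0 fell. NEURL1B rose 1.73-fold, with 10.4 ± 1.26 CPM in soft against 18.0 ± 2.13 CPM in stiff (SD, n = 3; edgeR adjusted p = 0.000499). Of 6 genes of the nuclear complex, 1 rose and 3 fell. The gene that rose was RBPJ, at 28.04, 26.6 and 27.5 CPM in soft and 38.5, 39.2 and 38.1 CPM in stiff (1.41-fold, adjusted p = 0.000287), with the 3 stiff libraries close together. Those that fell were MAML1 and the acetyltransferases EP300 and CREBBP, which have transcripts of 5723 to 10803 bases; in stiff replicate 2, EP300 and CREBBP differed from the other stiff libraries by -0.79 and -0.71 on the log2 scale. Without stiff replicate 2 their log2 fold changes went from -0.65 to -0.43 (EP300) and from -0.68 to -0.49 (CREBBP), and that of MAML1 from -0.30 to -0.21. Of 7 co-repressors, 1 rose (CTBP1, 1.24-fold, adjusted p = 0.00489) and 2 fell, among them TLE4. With limma on TPM, CTBP1 did not pass in any of the 3 settings. EP300 missed the threshold in 5 of 20 alternatives and TLE4 in 4 of 18. Of 8 genes of receptor turnover and inhibition, 2 rose and 2 fell. DTX4, a ubiquitin ligase of the Deltex family that binds Notch, fell 2.27-fold, from 64.3, 55.5 and 56.1 CPM to 25.6, 23.5 and 28.3 CPM (adjusted p = 6.22e-06). Genes named here beside DLK2, HES7, LFNG, PSEN2, NEURL1B, RBPJ, CTBP1 and DTX4 were named after their values were seen.

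**Figure D5:**
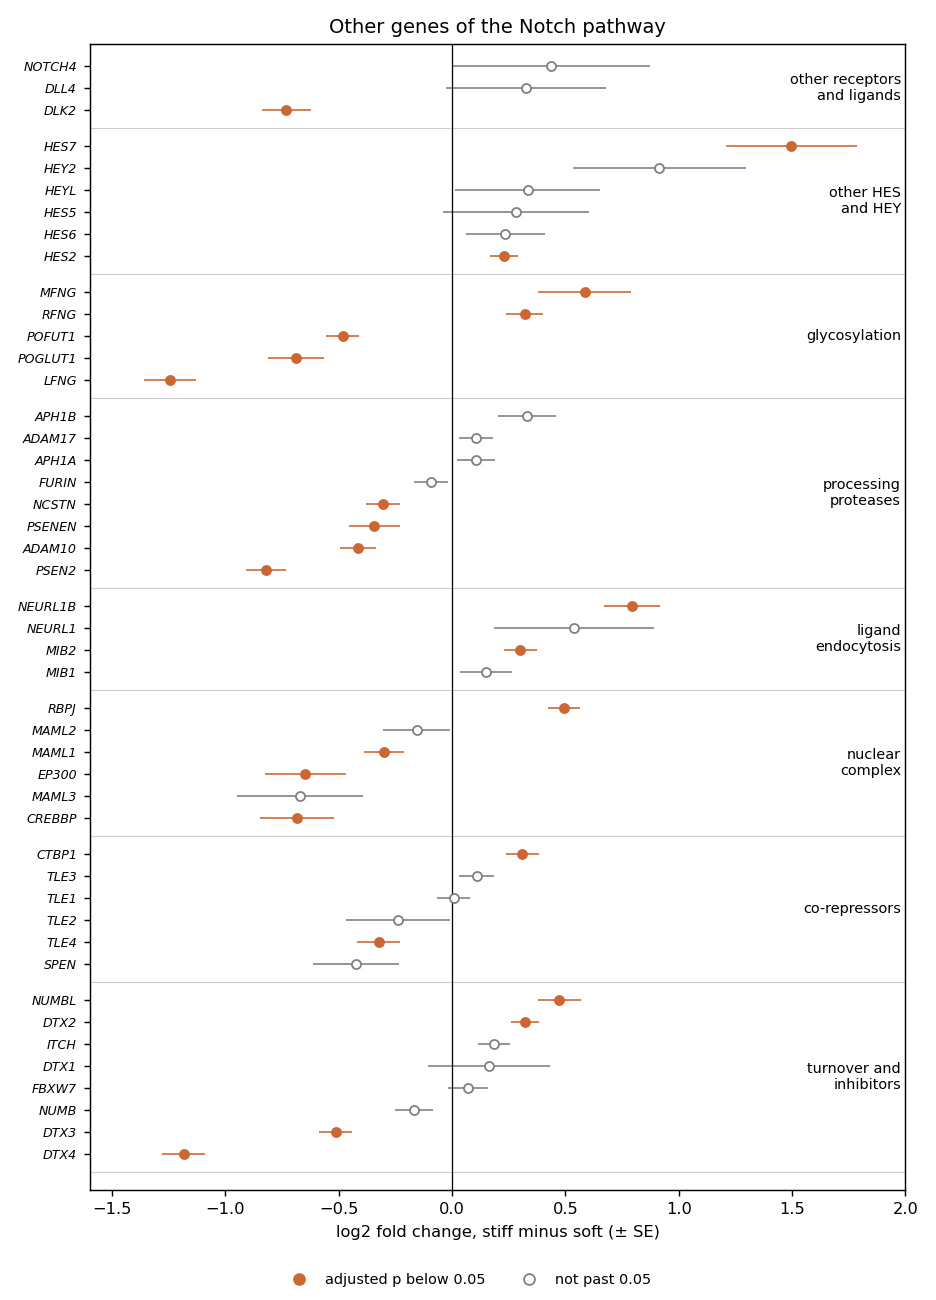
Log2 fold change, stiff minus soft, with its SE for tested genes of the other Notch pathway lists, grouped by role and filled where the adjusted p is below 0.05. LFNG and DTX4 have the largest falls, HES7 the largest rise, and the called proteases of receptor processing all lie below 0.

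Of 6 keratinocyte genes that have been linked to Notch signalling, 5 rose, 0 fell and 1 did not pass, beside 25.3% higher and 23.8% lower among all genes. The cell cycle inhibitor CDKN1A rose 2.38-fold, with 75.6 ± 2.55 CPM in soft against 179.8 ± 21.9 CPM in stiff (SD, n = 3; edgeR adjusted p = 3.5e-06), and the suprabasal keratin KRT10 rose 2.92-fold, with 24.9 ± 3.06 CPM in soft against 72.6 ± 4.24 CPM in stiff (SD, n = 3; edgeR adjusted p = 1.49e-06). KRT1, another suprabasal keratin, had a mean of 2.04 ± 0.340 CPM in soft and of 45.5 ± 6.82 CPM in stiff (SD, n = 3, adjusted p = 5.46e-08). TP63, a basal transcription factor that acts against Notch in keratinocytes, also rose (1.61-fold). IVL, a cornified envelope precursor, had means of 1.51 ± 0.326 CPM in soft and 1.05 ± 0.236 CPM in stiff and did not pass (SD, n = 3; edgeR adjusted p = 0.115). TP63 also stands in the list of squamous markers. The list of keratinocyte genes was chosen with earlier results of these data known. It holds TP63 beside the suprabasal keratins, so its count of rises gives no direction for the pathway. TP63 and IVL were named after their values were seen.

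The genes nearest in pattern to each called Notch gene were sought among 12419 genes averaging 5 CPM or more, by the root mean square difference of centred log2 CPM over the 6 libraries. NOTCH3 was nearest to ZNF516 (0.041) and DIP2A (0.044). NOTCH1 was nearest to ANAPC1 (0.029) and ZBTB40 (0.036), and NOTCH2 to PLEKHA6 (0.042) and FLJ42627 (0.046). JAG2 was nearest to KIFC2 and KLHL36 (0.020 for each), DLL1 to TCTN2 (0.014) and TNFAIP1 (0.020), and NRARP to NIBAN2 (0.019) and TPD52 (0.020). With 12419 candidates and only 6 libraries, close matches can arise for any gene. The departure of stiff replicate 2 also enters the distance. Shared regulation was not tested.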

How the data were processed

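The RNA of 6 libraries was sequenced. According to the submitters' processing notes the build was hg38 and the tools were STAR (2.6.1e), featureCounts (1.6.2), cutadapt (1.9.1), Trim Galore (0.4.2) and FastQC (0.11.7), listed with no order. For the annotation and the strand setting of the counting, the choice is not given in the sources used here. Counts, as deposited, are raw whole numbers per gene symbol. The deposited TPM values, given by the authors to 1 decimal, equal those counts over a fixed gene length and a library factor within 5% for 100% of 8666 genes with at least 5 TPM in each library. Across 7654 genes that length correlated better with transcript length times the number of RefSeq transcripts (r = 0.956) than with transcript length alone (r = 0.83); genes are not independent replicates.

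Counts were tested in R 4.3.3 with edgeR 4.0.16 (quasi-likelihood, TMM, default filter, no covariate, Benjamini-Hochberg adjustment, threshold 0.05), with limma 3.58.1 and DESeq2 1.42.0 as alternatives. Positions come from RefSeq on GRCh38.p14, the same assembly as hg38. Libraries of a group all differed by more than sampling noise (chi-square over its degrees of freedom: 3.42 to 33.9). Members and lists were chosen with earlier results of these data known. Apart from the 10 members, genes named by rule were those of each list past the threshold with at least a 2-fold difference and 1 CPM, or else that with the smallest p, and the 2 genes nearest in pattern to each called member. Further genes of the lists were named after their values were seen. The table holds 0 columns of other series. Some genes counted in the lists are not reported here by name.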

Additional observations from a re-analysis of the deposited data

How the results depend on the processing

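Of 200 values of the 10 Notch genes under 20 alternatives, 166 kept direction and side of the threshold. NOTCH2, JAG2 and NRARP kept theirs under all 20, with log2 fold changes of -0.99 to -0.69, 0.36 to 0.60 and 0.37 to 0.53. Limma on TPM, run on log2(TPM + 1), on log2(TPM + 0.1) and on log2(TPM + 1) without a filter, called 2880, 2831 and 3138 of all genes higher. In these 3 settings it called 44.2%, 43.1% and 26.2% of all genes tested in either direction. Of the Notch genes it called 2 higher in each of these, and without the filter 1 lower. Of the other pathway genes it called 4, 3 and 4 higher. The median log2 fold change of all genes was -0.09, -0.11 and -0.04 in these 3 settings, and 41.3%, 41.6% and 43.3% of calls were higher (44.7% with library size only, 51.5% in edgeR). JAG1 turned to -0.068, -0.068 and -0.068 in the 3 and to -0.0073 with library size only. HEY1 turned to -0.090, -0.11 and -0.090, to -0.040 with library size only and to -0.055 with the length trend taken out. The cause was not tested. With CPM per kilobase in place of TPM the NOTCH3 share was 63.9% in soft and 80.3% in stiff, and the JAG1 share 58.6% and 53.0%; the lengths used differ.

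With each library left out, JAG1 ranged from -0.026 to 0.14 and HEY1 from -0.22 to 0.14. Notch genes called higher ranged from 3 to 5 and lower from 2 to 3, and other pathway genes from 8 to 14 and from 11 to 17. Of all genes tested, 37.6% to 55.7% were called in these runs. The replicate numbers were not taken to pair the samples in the main fit. Deviations of same-numbered libraries correlated at 0.073, 0.22 and 0.05. Of the soft libraries only soft replicate 2 correlated best with the stiff library of its own number. Its correlations with stiff replicates 1 and 3 were -0.16 and -0.12. Deviations from a group mean cancel out over the group, so these values are not independent of the 0.22. Whether the numbers pair the samples cannot be told from these values. With the replicate number as a block, 5 Notch genes were higher and 2 lower, beside 54.6% of all genes tested called. HES1 then passed (0.30, adjusted p = 0.00169) and HEY1 turned to -0.0075. The SE went from 0.13 to 0.072 for NOTCH2 and from 0.12 to 0.065 for HES1, and stayed at 0.064 for JAG2. With the length trend also taken out, HEY1 was at -0.072, and 6 Notch genes were higher and 3 lower, beside 57.3% of all genes tested called.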
